A study of Mus musculus with 16 samples.

Results

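The data are the CpG positions that carried a Dnmt1-directed label in the gene bodies of 10 mouse genes for potassium channels and their auxiliary subunits, out of 34614 genes (21887 protein-coding and 12727 long non-coding) placed on build mm10 by RefSeq. The genes were Kcnd2, Kcnd3, Kcnh7, Kcnip1, Kcnip4, Dpp6, Dpp10, Kcnma1, Kcnq3 and Kcnb2. They are related by function and were chosen by measured values as well, namely the reads and positions of Day 8 against Day 0, on which Kcnd2, Kcnh7 and Dpp10 had been called higher. Values from that contrast are therefore given as a description.

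Potassium channels let potassium leave the cell and so set how readily an excitable cell fires. Kcnd2 and Kcnd3 code for the pore of the fast A-type channel, Kcnip1 and Kcnip4 for calcium-binding proteins that attach to it inside the cell, and Dpp6 and Dpp10 for membrane proteins, related to dipeptidyl peptidases but without that activity, that speed its opening and closing. The other members code for pores: Kcnh7 for an ether-a-go-go related channel, Kcnb2 for a delayed rectifier, Kcnq3 for the muscarine-sensitive M-current, and Kcnma1 for the large-conductance channel opened by calcium and voltage. These genes are best known from neurons and muscle. Dnmt1 is the methyltransferase that copies CpG methylation onto newly made DNA strands.

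The study followed Dnmt1 action in E14tg2a mouse embryonic stem cells. Cells with the heterozygous Dnmt1 N1580A knock-in, or with both Dnmt1 alleles wild type, received 1 mM Ado-6-azide, an azide-bearing analogue of the methyl donor S-adenosylmethionine, by electroporation, and genomic DNA was taken 3 h later. Azide-tagged DNA was captured and sequenced outward from the tag by TOP-seq, tethered oligonucleotide-primed sequencing, from 900 ng of input on an Ion Proton. Day 0 cells (2 libraries) were naive, held with the 2 kinase inhibitors CHIR99021 and PD0325901, and Day 2, Day 4 and Day 8 cells (2 libraries each) were primed without them. All day libraries and the 3 libraries named Het came from cells with the heterozygous knock-in, so the day series has no wild-type arm. Wild-type cells gave 3 libraries, and a further 2 are named wild-type control. The labels do not say in which culture state the Het cells were, what sets the wild-type control apart, whether libraries of a group came from separate cultures, or how many clones the knock-in line stands for. The p-values below therefore measure at most the spread between these libraries, which may be technical. In the day fits, the common coefficient of variation beyond counting came out at 0.488 for reads but 0.00988 for distinct positions. The positions value was the same, 0.00988, in the fit with Het. It may therefore be the lowest value the method gives and not a measured spread. P-values and SEs in positions thus rest mainly on counting error and little on differences between libraries. Yet the Day 0 libraries differed 1.83-fold in positions at Kcnd2. The libraries hold genomic DNA, so the cell type could not be checked against expressed markers.

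The Het and day libraries held 4202118 to 25175264 reads, and the 5 wild-type and control libraries 1640 to 22890. Both Day 0 libraries were the shallowest of the first set, with 390158 and 407127 listed positions against 1267200 to 3423423 in the 9 later libraries (Day 2, Day 4, Day 8 and Het). They also had 10.8 and 12 reads per position, against 4.05 to 11.6. Levels are given as positions per 1000000 positions listed in the library (PPM). A position counted once is less open to PCR copies than a read, since reads carry no molecular identifier. In bulk DNA, a larger share of labelled cells and a larger share of labelled alleles cannot be told apart.

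Promoter sequences are shown first, because they mark where in these genes the label was and was not found. RefSeq promoter windows of build GRCm38.p6 (mm10), 250 bases before to 50 after a start site, matched 8 of the 10 genes (not Kcnq3 or Kcnb2) in 13 windows. The motif searched was CG, which reads the same on both strands. It was in 94.6% of all 32851 windows, and 53.0% of them held a CG listed in at least 1 of the 11 Het and day libraries. The 250 bases before the start site are printed for the 3 genes that chose the set and for a pair of contrasting relatives, 5′ to 3′ on the gene's strand. Capitals mark a CpG listed in any of the 11 libraries. The windows lie at chr6:21215096-21215345 (Kcnd2, forward), chr2:63184288-63184537 (Kcnh7, reverse), chr1:124045560-124045809 (Dpp10, reverse), chr3:105451640-105451889 (Kcnd3, forward) and chr11:33993194-33993443 (Kcnip1, reverse).
Kcnd2: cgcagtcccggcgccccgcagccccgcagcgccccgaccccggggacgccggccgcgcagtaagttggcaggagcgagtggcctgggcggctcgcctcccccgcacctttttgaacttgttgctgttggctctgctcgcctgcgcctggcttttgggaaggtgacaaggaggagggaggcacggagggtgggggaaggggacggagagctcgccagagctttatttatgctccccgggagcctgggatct
Kcnh7: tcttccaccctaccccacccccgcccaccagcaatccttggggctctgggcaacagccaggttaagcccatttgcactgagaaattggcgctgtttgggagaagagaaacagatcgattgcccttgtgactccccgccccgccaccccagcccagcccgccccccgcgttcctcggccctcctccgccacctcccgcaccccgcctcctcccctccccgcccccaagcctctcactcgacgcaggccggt
Dpp10: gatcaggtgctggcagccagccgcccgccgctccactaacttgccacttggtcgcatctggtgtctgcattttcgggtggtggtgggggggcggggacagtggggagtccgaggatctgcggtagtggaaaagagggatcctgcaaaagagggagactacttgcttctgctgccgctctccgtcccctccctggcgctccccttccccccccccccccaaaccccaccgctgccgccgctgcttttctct
Kcnd3: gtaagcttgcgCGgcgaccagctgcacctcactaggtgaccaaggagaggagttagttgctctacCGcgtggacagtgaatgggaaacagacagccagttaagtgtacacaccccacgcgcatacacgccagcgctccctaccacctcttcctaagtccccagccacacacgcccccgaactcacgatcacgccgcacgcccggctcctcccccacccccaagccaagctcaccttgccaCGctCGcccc
Kcnip1: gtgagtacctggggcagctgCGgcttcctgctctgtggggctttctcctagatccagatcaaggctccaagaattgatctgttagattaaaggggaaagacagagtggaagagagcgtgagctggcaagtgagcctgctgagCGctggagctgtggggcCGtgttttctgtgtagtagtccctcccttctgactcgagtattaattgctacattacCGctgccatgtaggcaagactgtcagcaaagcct

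The first 3 sequences have no capitals. They hold 22 CpGs (Kcnd2), 16 (Kcnh7) and 14 (Dpp10), and none was listed in any of the 11 libraries. The Kcnd3 sequence holds 18 CpGs with 4 listed, and the Kcnip1 sequence 6 with 4 listed. In the 5 full 300-base member windows with 20 or more CpGs (Kcnd2, Kcnd3, Kcnh7, Dpp10 and Kcnma1), 4 of 129 CpGs were listed (3.1%), all 4 at Kcnd3. In the 8 windows with fewer than 20, at Kcnip1, Kcnip4 and Dpp6, 24 of 73 were listed (32.9%), and 2 of the 8, a Kcnip4 window with 7 CpGs and a Dpp6 window with 10, had none listed. Across all windows of the genome, 1.36% of CpGs were listed where a window held 20 or more and 31.4% where it held fewer. Those with fewer divide into 12.5% for windows of 10 to 19 CpGs, 51.3% for 5 to 9 and 59.5% for 4 or fewer. No member window held a listed CpG in either Day 0 library. The Day 8 libraries together listed 0 to 3 per window, so a difference from Day 0 was not detectable there at this depth. The Dpp10 window lies 800 kb inside the annotated 5′ end of that gene, so it describes an internal start site.

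Kcnd2 spans 514 kb on chromosome 6 (21215346 to 21729805), and its body held far fewer labelled positions in naive cells than later. The Day 0 libraries listed 11 and 21 positions, Day 2 listed 145 and 131, Day 4 listed 213 and 264, Day 8 listed 327 and 315, and Het listed 180, 411 and 290. In PPM, these are 28.2 and 51.6 on Day 0, 114 and 100 on Day 2, 102 and 102 on Day 4, 107 and 121 on Day 8, and 110, 120 and 110 in Het. Both Day 0 libraries lie below all 9 later ones, and the later ones differ among themselves by at most 1.21-fold. Mean levels were 39.9 ± 16.5 on Day 0 and 114 ± 10.1 on Day 8 (SD, n = 2 each), a ratio of 2.85. Reads gave a ratio of 2.82.

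Kcnd3, the other A-type pore gene of the set (222 kb, chromosome 3, 105451890 to 105674002), did not show that gap. Its levels were 100 and 155 PPM on Day 0, 168 and 147 on Day 2, 141 and 131 on Day 4, 139 and 133 on Day 8, and 132, 130 and 142 in Het. The Day 0 libraries stand on either side of most later libraries and differ from each other by 1.55-fold, so the groups overlap. The Day 8 to Day 0 ratio was 1.07. In the edgeR fit of reads its log2 change was 0.02, but -0.41 without Day 0 replicate 1 and 0.64 without Day 0 replicate 2, so its sign rests on which Day 0 library is used. Kcnd3 also held the most repeatedly labelled CpG of the 10 genes. Position 105596669 on chromosome 3, inside the gene body (exon boundaries were not used here), was listed in all 11 Het and day libraries with 2 to 34 reads (median 7).

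The calcium-binding subunit genes stood between these. Kcnip1 (364 kb, chromosome 11, 33629339 to 33993348) had 164 and 211 PPM on Day 0 and 225 to 255 in the 9 later libraries (mean 240). Kcnip4 (chromosome 5, 48389503 to 49525122) at 1140 kb had 161 and 152 on Day 0, 200 and 171 on Day 2, 195 and 201 on Day 4, 203 and 239 on Day 8, and 205, 212 and 195 in Het. In both genes the Day 0 libraries lie below every later one in positions, by small margins. The Day 8 to Day 0 ratios were 1.26 and 1.41. In reads per 1000000 the Kcnip4 groups overlap, with 141 and 179 on Day 0 against 169 to 228 later.

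Of the genes for the related membrane proteins, Dpp10 showed a gap and Dpp6 did not. Dpp10, like Kcnd2, was among the genes whose rise chose the set, so its gap follows from that choice. Dpp10 (1510 kb, chromosome 1, 123332138 to 124845815) listed 39 and 37 positions on Day 0, 216 and 233 on Day 2, 392 and 483 on Day 4, 596 and 558 on Day 8, and 343, 646 and 498 in Het. In PPM, that is 100 and 90.9 on Day 0, 170 and 178 on Day 2, 187 and 187 on Day 4, 194 and 214 on Day 8, and 209, 189 and 189 in Het. Both Day 0 libraries are well below the rest, and the Day 8 mean was 204 ± 14.1 against 95.4 ± 6.42 on Day 0 (SD, n = 2 each), a ratio of 2.14. Dpp6 (910 kb, chromosome 5, 26817357 to 27727500) had 267 and 255 on Day 0, 259 and 278 on Day 2, 289 and 274 on Day 4, 266 and 269 on Day 8, and 300, 269 and 284 in Het. Its Day 0 and later libraries overlap, and its Day 8 to Day 0 ratio was 1.02.

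Among the remaining pore genes, Kcnh7 (491 kb, chromosome 2, 62693410 to 63184287) had the widest gap of the 10. It listed 11 and 13 positions on Day 0, 102 and 100 on Day 2, 181 and 209 on Day 4, 275 and 284 on Day 8, and 161, 297 and 219 in Het. In PPM the levels were 28.2 and 31.9 on Day 0, 80.5 and 76.5 on Day 2, 86.5 and 81.1 on Day 4, 89.7 and 109 on Day 8, and 98.1, 86.8 and 82.9 in Het. The Day 0 libraries are close to each other and far below the others, with a Day 8 to Day 0 ratio of 3.31 in positions and 3.98 in reads.

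Kcnma1 (713 kb, chromosome 14, 23292288 to 24005110) lay the other way. It had 343 and 314 PPM on Day 0, 314 and 310 on Day 2, 300 and 280 on Day 4, 282 and 292 on Day 8, and 300, 292 and 287 in Het. Both Day 0 libraries were at or above every later one, with a Day 8 to Day 0 ratio of 0.872, and the reads overlap. Kcnb2 (437 kb, chromosome 1, 15286925 to 15723751) had 97.4 and 95.8 on Day 0 against 110 to 128 later, a narrow gap in positions, while its reads overlap. Kcnq3 (300 kb, chromosome 15, 65986374 to 66286636) had 110 and 113 on Day 0 within the later range of 95.6 to 117.

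**Figure D1:**
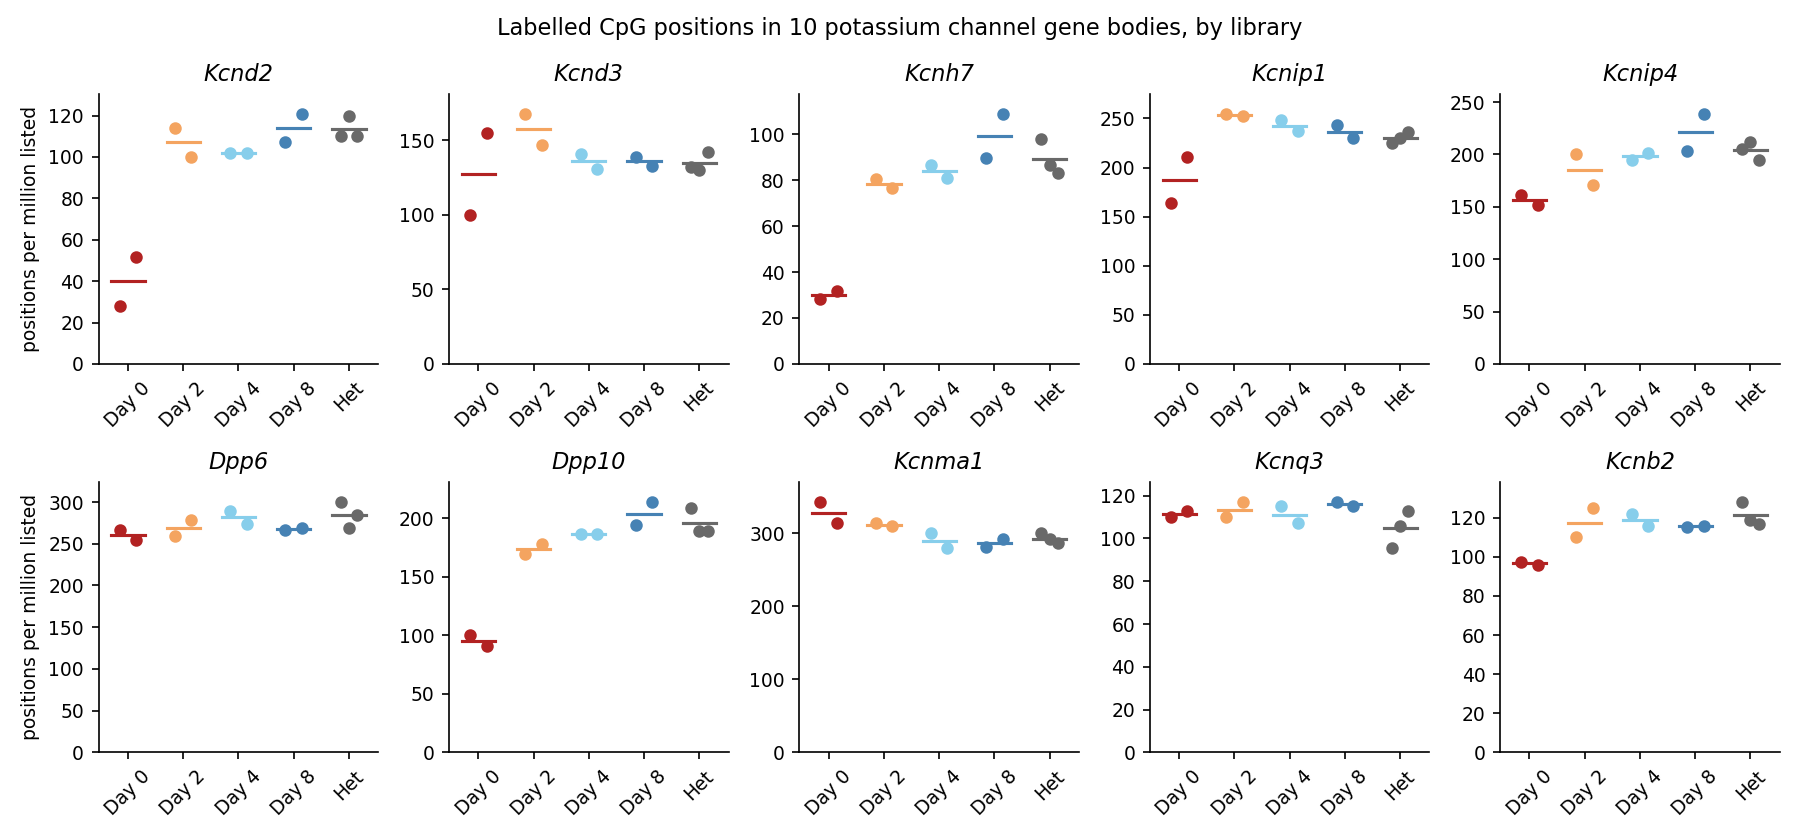
Labelled positions per 1000000 listed, PPM (vertical axis, from 0) in each gene body, by group (horizontal axis). Points are libraries and lines are group means. Kcnd2, Kcnh7 and Dpp10 sit low on Day 0 (28.2 to 51.6, 28.2 to 31.9 and 90.9 to 100) and higher from Day 2 onward, while Kcnd3, Dpp6 and Kcnq3 overlap throughout.

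In positions, 6 of the 10 genes had both Day 0 libraries below all 9 later ones (Kcnd2, Kcnh7, Kcnip1, Kcnip4, Dpp10 and Kcnb2). The same held for 17.9% of all 20415 genes tested and for 29.9% of the 1051 tested genes of at least 200 kb, a length that all members exceed. Kcnma1 was the 1 member with both above, as were 11.3% of all genes and 18.6% of the long ones. In reads, 5 members lay below (Kcnd2, Kcnh7, Kcnip1, Dpp6 and Dpp10), against a background of 20% of 30249 genes, and none above, against 7.12%. The choice of members used Day 0, so nothing is read from these counts.

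The contrast that chose the members was fitted over the whole table with edgeR's quasi-likelihood test, calling genes at a Benjamini-Hochberg adjusted p under 0.05. In reads, 3 members were called higher on Day 8 (Kcnd2, Kcnh7 and Dpp10) and 0 lower, against a background of 1.82% of all genes higher and 0.717% lower. In distinct positions, 4 were called higher (the same 3 and Kcnip4) and 0 lower, against 2.23% and 2.71%. Among genes of at least 200 kb the shares were 5.03% higher and 6.74% lower in reads, and 10.8% and 12.8% in positions. As this contrast chose the members, nothing is read from the counts. The log2 changes in reads were 1.42 for Kcnd2, 1.92 for Kcnh7 and 1.10 for Dpp10, and 1.43, 1.65 and 1.03 in positions. The other 7 ran from -0.21 (Kcnma1) to 0.41 (Kcnip1) in reads and from -0.26 (Kcnma1) to 0.42 (Kcnip4) in positions. The member just inside the threshold in reads was Dpp10 (edgeR adjusted p of 0.0207), and just outside was Kcnip1 (edgeR adjusted p of 0.0932). The calls in reads depended on the libraries in the fit. Without 1 library of Day 2, Day 4 or Day 8, 0 members were called (1 without Day 4 replicate 2). Leaving out either Day 0 library, which left 1 in that group, moved the number called as well. The calls over all genes also moved with the library left out. Counts from these fits are therefore not set against the shares above. The calls in positions numbered 3 or 4 under every such omission.

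The same 3 genes are given at every stage against Day 0. For Kcnd2 in reads the log2 changes were 1.41 on Day 2, 1.20 on Day 4, 1.42 on Day 8 and 1.45 in Het. For Kcnh7 they were 1.54, 1.71, 1.92 and 1.76, and for Dpp10 0.96, 1.00, 1.10 and 1.04, in the same order. All 4 values of a gene share the 2 Day 0 libraries, so they do not count as repeats of each other. The Day 2 value is the lowest of the 4 for Kcnh7 and Dpp10, and the Day 4 value for Kcnd2.

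Groups other than Day 0 and Day 8 were then compared with each other. The Day 0 and Day 8 libraries still entered the estimate of spread and the filter of these fits. With no Day 0 library in the fit, an alternative added after seeing the data, 0 members were called in either comparison, in reads or in positions. Between Day 2 and Day 4, no member was called in reads (all adjusted p of 1, edgeR quasi-likelihood test), where 0.0% of all genes were called in either direction and 706 of 30249 had an unadjusted p under 0.05, none of them a member. In reads, log2 changes on Day 4 against Day 2 were -0.20 ± 0.16 (SE) for Kcnd2, 0.16 ± 0.17 for Kcnh7 and 0.04 ± 0.15 for Dpp10. The members ran from -0.26 ± 0.25 (Kcnd3) to 0.16 (Kcnh7). In positions, 0 of 10 passed as well, against 0.0637% of genes higher and 0.0686% lower. The lowest unadjusted p-values in positions belonged to Kcnd3 (log2 change -0.26 ± 0.09, edgeR adjusted p = 0.336) and Kcnma1 (-0.15 ± 0.07, adjusted p = 0.508), the 2 members with an unadjusted p under 0.05, as had 1671 of all 20415 genes (8.19%). DESeq2 also called 0 members. A p above the threshold does not show that levels were equal.

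Het cells were compared with Day 4 in the same way. No member was called in reads (all edgeR adjusted p of 1), against 0.00321% of genes higher and 0.0% lower, and 216 of 31108 genes had an unadjusted p under 0.05, none of them a member. The log2 changes in reads ran from -0.16 ± 0.13 (SE) for Kcnq3 to 0.24 ± 0.13 for Kcnd2, with 0.05 ± 0.14 for Kcnh7 and 0.04 ± 0.13 for Dpp10. In positions, Kcnd2 was the 1 member with an unadjusted p under 0.05 (0.17 ± 0.08, edgeR adjusted p = 1), where 927 of all 23319 genes (3.98%) had one and 0.0% were called. DESeq2 called 0 members here too. Set against Day 8, which the choice of members used, Het gave log2 changes of 0.01 for Kcnd2, -0.17 for Kcnh7 and -0.07 for Dpp10 in reads.

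**Figure D2:**
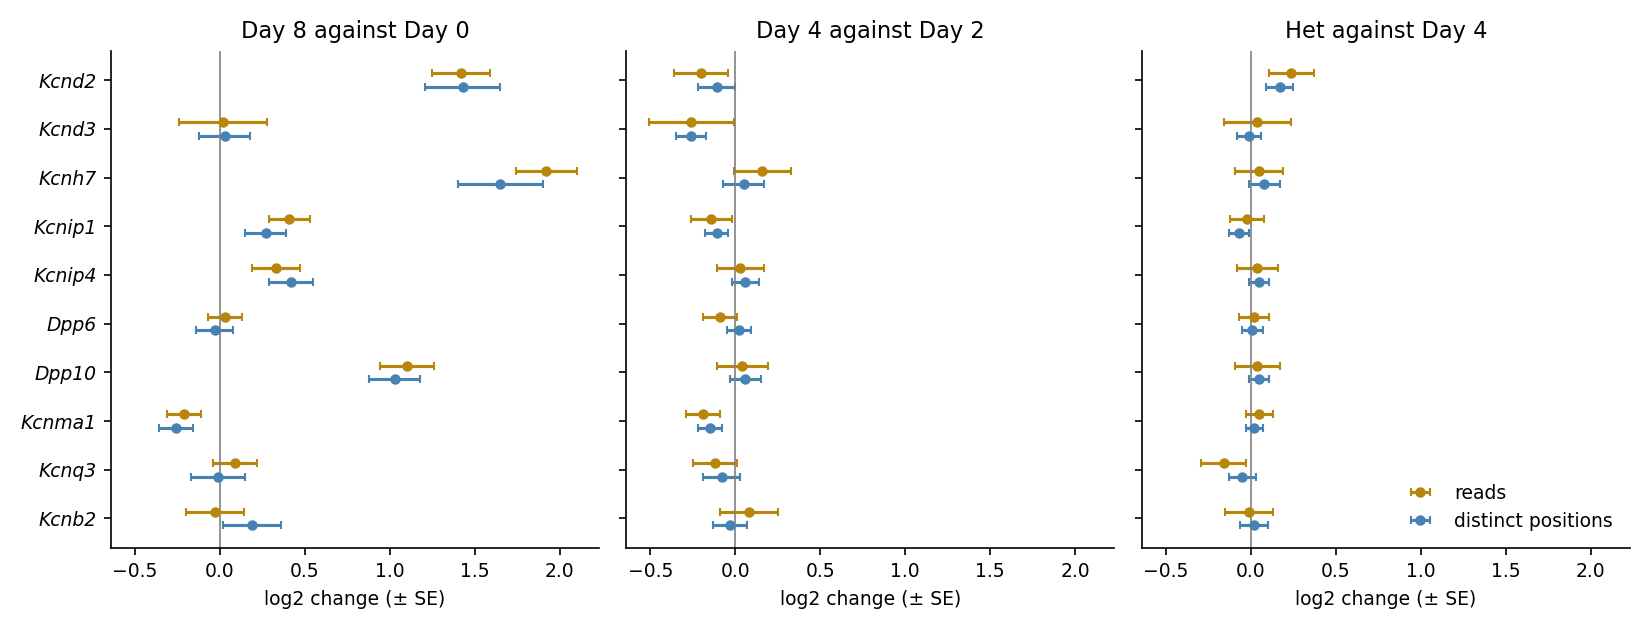
Log2 change (horizontal axis) with its SE for each gene in 3 comparisons, from the edgeR fits of reads and of distinct positions. Kcnd2, Kcnh7 and Dpp10 stand at 1.03 to 1.92 for Day 8 against Day 0, and all members lie between -0.26 and 0.24 in the other panels.

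Within Kcnd2 and Kcnh7 the Day 8 excess was not at a single place. In windows of 50 kb, the pooled Day 8 libraries had a higher PPM than the pooled Day 0 libraries in 10 of 10 windows of Kcnd2, in 9 of 9 of Kcnh7 and in 28 of 30 of Dpp10. The count was 17 of 22 for Kcnip4, 13 of 18 for Dpp6, 7 of 8 for Kcnb2, 6 of 7 for Kcnip1, 3 of 4 for Kcnd3, 3 of 6 for Kcnq3 and 4 of 14 for Kcnma1. A Day 0 window rested on few positions, with at most 8 in Kcnd2, 6 in Kcnh7 and 7 in Dpp10. The Day 8 windows of these genes held 44 to 90, 47 to 80 and 20 to 49. In the 9 later libraries the last of 10 equal parts of Kcnd2, at its 3′ end, held 17.8% of its positions, and the last part of Kcnh7 14.4%. On Day 0 these parts held 6.25% (2 positions) and 20.8% (5 positions). The first part of Kcnd2 held 25.0% on Day 0 (8 positions) and 11.5% later. In Dpp10 no part held more than 11.3% in the later libraries, or more than 15.8% (12 positions) on Day 0.

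**Figure D3:**
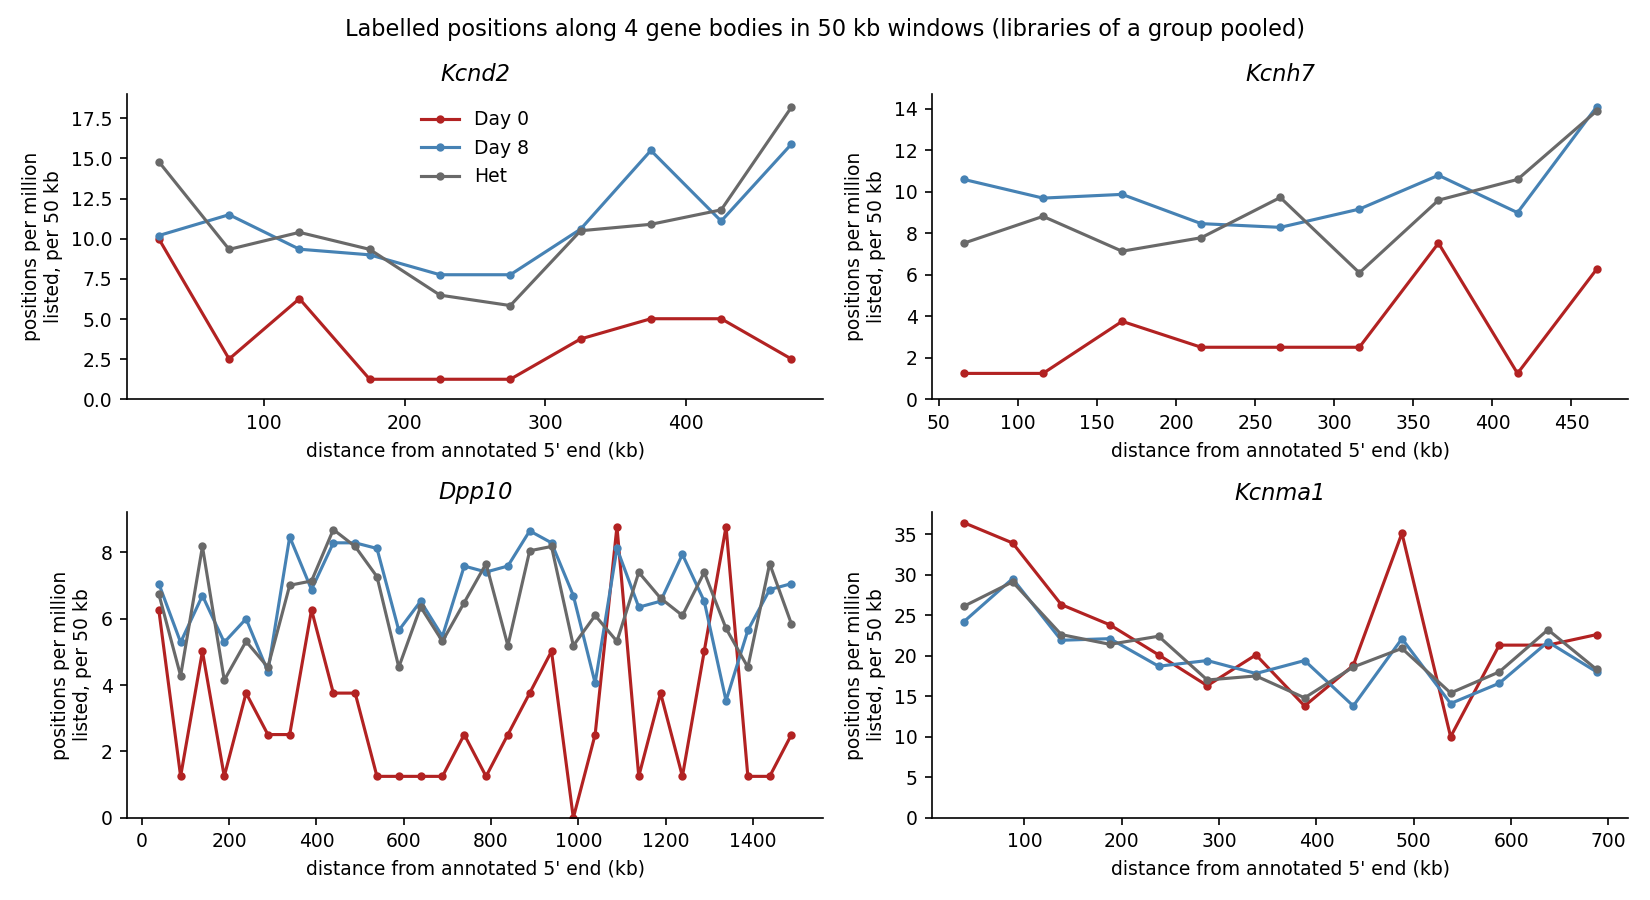
Positions per 1000000 listed (PPM) in each 50 kb window (vertical axis) against distance from the annotated 5′ end in kb (horizontal axis), for Day 0, Day 8 and Het with the libraries of a group pooled. Day 8 and Het run together above Day 0 in Kcnh7, and in Kcnd2 beyond its first window. In that window Day 8 is nearly level with Day 0. Day 8 lies above Day 0 in all but 2 windows of Dpp10. In Kcnma1, Day 8 and Het run among the Day 0 values.

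The surroundings of Kcnd2 and Kcnh7 differed less between Day 0 and Day 8 than the gene bodies. In the 200 kb on either side, the ratio of Day 8 to Day 0 in PPM was 1.40 around Kcnd2 and 1.2 around Kcnh7, against 2.85 and 3.31 in the bodies. On Day 0 the Kcnh7 body had 61.2 PPM per Mb and its flanks 242. On Day 8 the same values were 203 and 289. For Kcnd2 they were 77.5 and 179 on Day 0, then 221 and 250. Around Dpp10 the flanks gave 1.5 against 2.14 in the body, on 33 flank positions in the Day 0 libraries. With flanks of 100 kb the Dpp10 ratio was 2.16, no lower than the body, on 11 Day 0 positions, and with 500 kb it was 1.29. The contrast of body and flank at Dpp10 thus depended on the width chosen, while for Kcnd2 (1.30 and 1.17) and Kcnh7 (1.03 and 1.17) the flanks stayed below the body at each width. These values share the Day 0 libraries with the rule and carry no test.

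**Figure D4:**
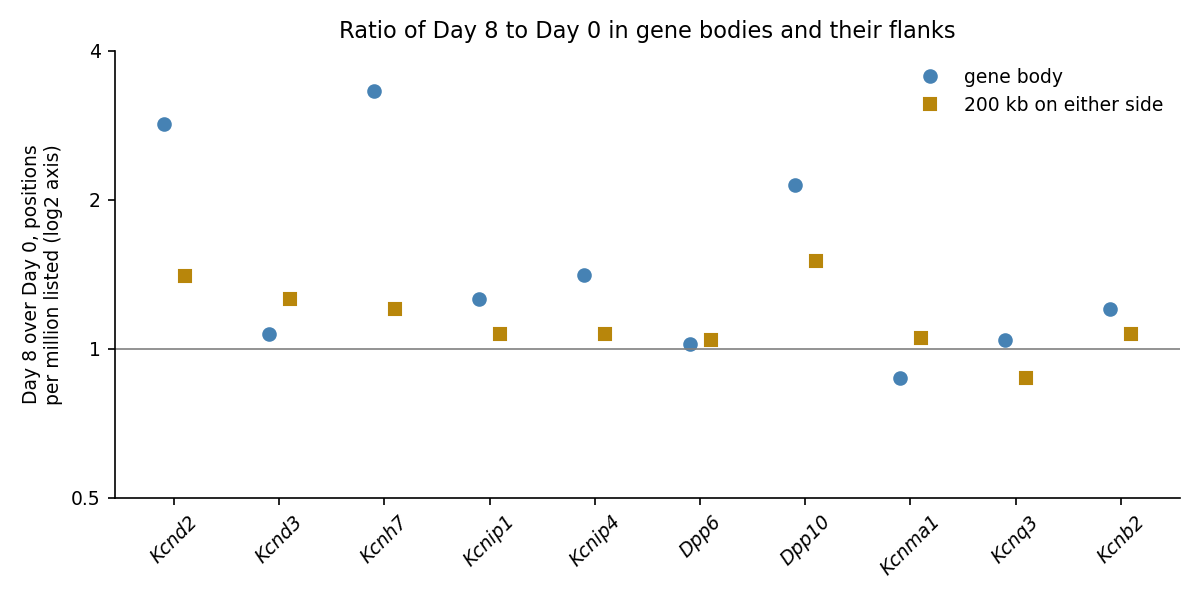
Ratio of Day 8 to Day 0 in mean PPM (log2 axis) in each gene body and in the 200 kb on either side. Kcnd2 and Kcnh7 show the widest distance between body (2.85 and 3.31) and flanks (1.40 and 1.2).

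Per length, the 10 genes differed several-fold in label. In Het, the group with the most reads per library, Dpp10 had 129 ± 7.73 PPM per Mb (SD, n = 3), followed by Kcnip4 with 180 ± 7.27, Kcnh7 with 182 ± 16 and Kcnd2 with 220 ± 11.6. Kcnb2 had 277 ± 13.7, Dpp6 312 ± 17, Kcnq3 349 ± 29 and Kcnma1 411 ± 9.22. Kcnd3 had 607 ± 28.3 and Kcnip1 633 ± 15.1. Kcnip4 and Kcnh7, Dpp6 and Kcnq3, and Kcnd3 and Kcnip1 overlapped between libraries, and the other neighbours in this order did not. Among the long genes Dpp10 stood at percentile 5.23 of this density, Kcnh7 at 13.8 and Kcnd2 at 21.3, while Kcnd3 and Kcnip1 stood at 76.5 and 79. The genes sparsest in label included the 3 with the largest Day 8 excess, but also Kcnip4, with a log2 change of 0.42 in positions. Across the 10 genes the Spearman correlation between Het density and the log2 change from Day 0 to Day 8 in positions was -0.64. Across the 1051 long genes it was -0.53, and across all 20415 genes tested it was 0.0. Genes are not independent replicates, they share the same libraries, and gene length and CpG content enter the density, so these are descriptions.

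**Figure D5:**
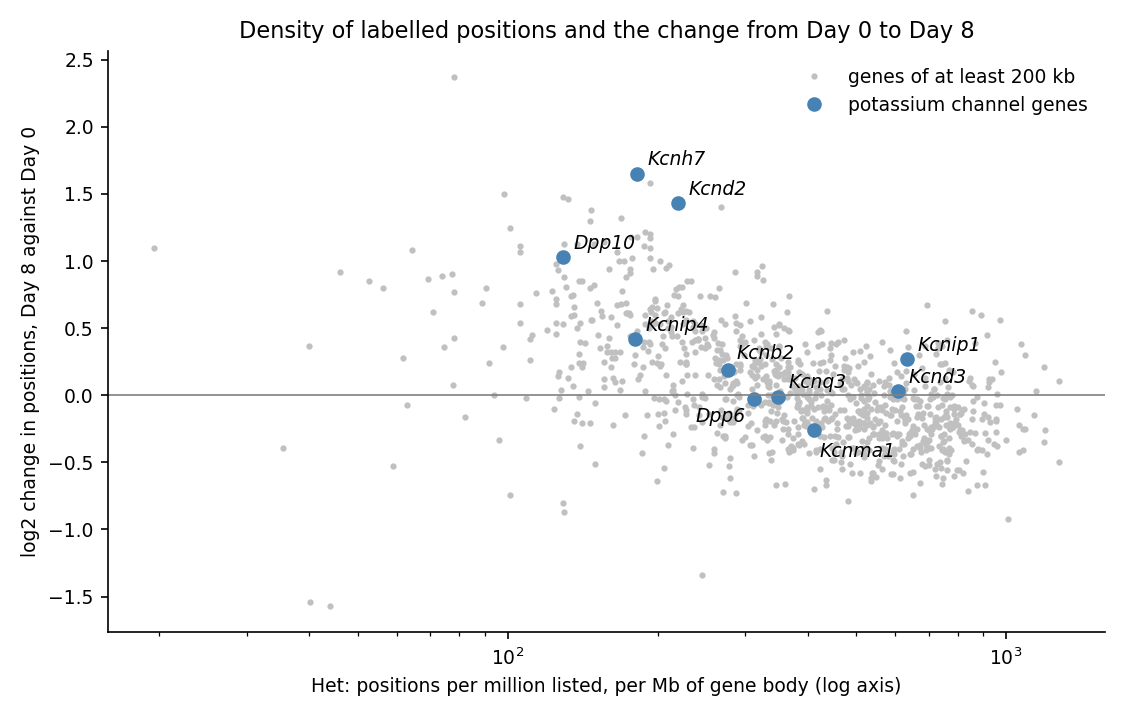
Log2 change in distinct positions for Day 8 against Day 0 (vertical axis) against PPM per Mb in Het (horizontal log axis), for genes of at least 200 kb with the members named. Kcnh7, Kcnd2 and Dpp10 lie toward the sparse end (percentiles 13.8, 21.3 and 5.23 of density) and above the other members. Kcnip4 is also sparse (percentile 13.6) but has a log2 change of 0.42. Kcnd3 and Kcnip1 lie toward the dense end.

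Over the 11 libraries, between 1216 (Kcnh7) and 3535 (Kcnma1) distinct positions were listed per gene, and 42.7% (Kcnip1) to 64.7% (Dpp10) of them were seen in a single library. No position of Kcnd2, Kcnh7 or Dpp10 was listed in more than 5 libraries. In 6 or more libraries were 24 positions of Kcnip1 and 10 of Kcnd3, the genes densest in label. The other members had from 3 (Kcnip4) to 12 (Dpp6) such positions. The Day 8 libraries shared 50 Kcnd2 positions, which is 15.3% of the first library's and 15.9% of the second's. They shared 39 Kcnh7 positions (14.2% and 13.7%) and 74 Dpp10 positions (12.4% and 13.3%). Of the 31 Kcnd2 positions seen on Day 0, 25 were listed in a later library as well, as were 16 of 24 in Kcnh7 and 44 of 73 in Dpp10. These shares were 80.6%, 66.7% and 60.3%, set against all 9 later and deeper libraries together. In the other members the share ran from 64.5% (Kcnip4) to 88.2% (Kcnb2), so it was not particular to these 3 genes. No share over all genes was taken.

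The reads on Day 0 rested on few positions. A Kcnd2 position carried on average 13.6 and 9.71 reads in the Day 0 libraries and 3.94 and 3.89 on Day 8. A single position gave 38.7% and 16.2% of all Kcnd2 reads on Day 0, and 23.7% and 20.8% of Kcnh7 reads. For Dpp10 it gave 6.87% and 8.07%. On Day 8 no position gave more than 2.64% of the reads of any member. The position counts do not carry this weight, and gave nearly the same ratio as reads for Kcnd2 and Dpp10 and a lower one for Kcnh7. Depth also moved with the result, as both Day 0 libraries were the shallowest, and its part was not tested.

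Wild-type cells, the background for the label, gave almost none in these genes. The 3 wild-type libraries listed 6, 0 and 14 positions in all 10 genes together, and the 2 controls 6 and 4, against 546 to 6002 in the Het and day libraries. Their totals were 960 to 9150 listed positions, too few to rank the genes. The members made up 0.0% to 0.249% of listed positions in these 5 libraries, 0.14% and 0.147% on Day 0 and 0.172% to 0.184% in the 9 later libraries. The share of all label found in the 10 genes together was a little lower on Day 0 than in any later library. As the choice of members used Day 0 and Day 8, nothing is read from that difference.

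Other potassium channel genes were listed by family membership, and their difference from the members was not tested. Of 85 such genes 84 were tested in reads for Day 8 against Day 0, with 0 called higher and 1 lower by edgeR, and their median log2 change was 0.06, beside 0.18 over all genes. The gene called lower was Kcnmb4, an auxiliary subunit of the Kcnma1 channel, with 480 and 564 reads on Day 0 and 765 and 698 on Day 8 in libraries of greater depth (log2 change -0.93 ± 0.17 SE, adjusted p = 0.0318). In positions, 76 were tested, 3 were called higher and 1 lower, with a median of 0.10 beside 0.04. Over all genes, 1.82% were called higher and 0.717% lower in reads, and 2.23% and 2.71% in positions. Kcnq5, a relative of Kcnq3, listed 29 and 32 positions on Day 0 and 375 and 383 on Day 8 (0.74 ± 0.18, edgeR adjusted p = 0.00238). Kcnip3, a relative of the Kcnip members, listed 6 and 7, then 116 and 108 (1.21 ± 0.35, adjusted p = 0.0237, edgeR). Kcnk5, a background potassium channel, listed 7 and 2, then 115 and 85 (1.57 ± 0.40, adjusted p = 0.00668, edgeR). Kcnmb4 was the 1 lower there too (-0.75 ± 0.18, adjusted p = 0.00342, edgeR). These calls depended on single libraries. With 1 library left out, the number called in reads fell or rose, depending on the library. In positions it fell without either Day 0 library. The calls over all genes also moved with the library left out, so counts from those fits are not set against the shares above.

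By role, 0 of 35 other voltage-gated pore genes, 0 of 7 other calcium- or sodium-activated ones, 0 of 15 inward rectifiers and 0 of 14 background-channel genes of the Kcnk family were called in reads, and 1 of 13 auxiliary subunits. At an unadjusted p under 0.05 the counts were 3, 0, 2, 7 and 3, where 6550 of all 30249 genes (21.7%) had one. Of 26 voltage-gated calcium channel genes 0 were called higher and 1 lower in reads, and of 26 glutamate receptor genes 2 higher and 0 lower, at medians of 0.08 and 0.24. The background was 1.82% of all genes higher and 0.717% lower, and 5.03% and 6.74% of genes of at least 200 kb. In positions the counts were 1 and 1 for the calcium channel genes and 4 and 1 for the glutamate receptor genes. The background there was 2.23% of all genes higher and 2.71% lower, and 10.8% and 12.8% of genes of at least 200 kb. The difference of these lists from the background was not tested. In reads of Het against Day 0, which uses the same Day 0 libraries, edgeR called 9 of the 84 other potassium channel genes higher and 3 lower, against a background of 9.69% of all genes higher and 3.68% lower. Of the 26 calcium channel genes 7 were higher and 2 lower there, as were 7 and 2 of the 26 glutamate receptor genes. Between Day 2 and Day 4, and between Het and Day 4, edgeR called 0 of the other potassium channel genes in reads or positions, and at an unadjusted p under 0.05 there were 3 and 9 in the first comparison and 2 and 4 in the second. DESeq2, run on reads, called 0 in both.

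Several gene bodies hold other annotated genes, and counts inside them belong to both. Kcnmb1, an auxiliary subunit gene of the Kcnma1 channel, lies inside Kcnip1 and shares 10687 bases with it. Kcnd2 holds a long non-coding gene of 60182 bases, and Dpp10 one of 12704. Kcnh7 overlaps the 3′ neighbour Gca by 700 bases and holds a long non-coding gene of 17982 bases. With overlapping stretches left out, the same number of members, 3, was called in reads.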

How the data were processed

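The authors deposited 1 table per library of chromosome, position and coverage, 16 in all. Coverage, per the file headers, is a raw count: whole reads at each position listed. The submitters' processing notes name build mm10, cutadapt 4.4, SAMtools 1.12 and BWA 0.7.17-r1188. Parameters and duplicate handling are not given in the sources used. Unlisted positions were taken as 0. In the promoter windows 100.0% of the listed positions lay on the forward-strand C of a CpG, so strands cannot be told apart.

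Reads, and distinct positions, were summed over RefSeq gene bodies (build GRCm38.p6) and tested on the whole table with edgeR 4.0.16 in R 4.3.3 (filterByExpr, TMM, glmQLFit, glmQLFTest, Benjamini-Hochberg, threshold 0.05). The day comparisons used the 8 day libraries and Het against Day 4 all 11. DESeq2 1.42.0 was an alternative, with library totals, no filter, the replicate block, fewer groups, each library left out, and overlapping stretches left out. Positions with a library left out, and fits without Day 0, were added after seeing the data. The wild-type libraries entered no fit.

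The text names the 10 members and, among other potassium channel genes, up to 3 genes in each direction with the largest called changes at or above median abundance. Members and lists were chosen with earlier results of these data known. Of 85 genes on the potassium channel list, 84 matched by symbol. Replicate numbers were shared across groups, but same-numbered libraries did not deviate together. Differences of replicate 1 from replicate 2 in log2 level were correlated over genes between pairs of groups. These correlations lay between -0.018 and 0.018, so the main fits had no block. Het replicate 3 did not enter them. Counting error is limited by depth, from 4202118 to 25175264 reads per Het or day library.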

Additional observations from a re-analysis of the deposited data

How the results depend on the processing

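In the contrast that chose the members (3 called in reads of Day 8 against Day 0), DESeq2 called 5 (also Kcnip1 higher and Kcnma1 lower), fits of only the groups compared 0, and fits with a library left out 0 to 6. Over all genes the count of 767 became 5294 with DESeq2, 142 with the replicate block, 0 with only the groups compared and 0 to 7648 with a library left out. In distinct positions the 1009 calls became 182 to 927 with a library left out, lowest without Day 0 replicate 2 (182) and Day 0 replicate 1 (272). The log2 change of Kcnd3 was -0.41 without Day 0 replicate 1 and 0.64 without Day 0 replicate 2. The replicate block left 3 members called. Replicate numbers did not pair the libraries, and the block changed no other call of a member.

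For the other potassium channel genes on Day 8 against Day 0, the 1 call became 4 with positions, 2 with library totals, 12 with DESeq2, 0 with the replicate block, 0 with only the groups compared, 0 to 22 with a library left out, and in positions 0 to 4. Day 4 against Day 2 had 0 calls over all genes, 27 with positions (0 to 27 with a library left out, 28 without Day 0 libraries) and 34 with DESeq2. Het against Day 4 had 1, then 0 with positions (0 to 6 with a library left out), 2 with DESeq2, 0 with the replicate block and 0 to 1 with a library left out in reads. No member was called in these comparisons under any setting run. The signs of the members' changes were the same in 78 of 80 values of Day 4 against Day 2, and 100 of 110 of Het against Day 4, in reads with a library left out. Flanks of 100 kb gave ratios of 1.03 at Kcnh7 and 2.16 at Dpp10. The cause of these differences was not tested. The 11 to 39 positions per Day 0 library at Kcnd2, Kcnh7 and Dpp10 limit their precision.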
